A study of Rattus norvegicus with 17 samples.

Results

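The genes described here encode the machinery of mitosis and cytokinesis, from Cdk1 and its cyclins to the motors, kinetochore proteins and contractile-ring regulators that pull chromosomes and daughter cells apart. They were taken from a list of 53 genes, and each was read from the probe set with a single gene symbol that had the highest mean over all arrays. By this rule 44 of the 53 were measured, among 14506 measured genes in all. Cenpe, Cenpf, Espl1, Kif18a, Ckap2, Anln, Ncapg, Ncaph and Mki67 had no such probe set and have no value below. The 44 comprise 8 genes of Cdk1, its cyclins and their switches, 5 other mitotic kinases, 3 of the chromosomal passenger complex, 7 of the kinetochore and spindle checkpoint, 3 of anaphase and protein destruction, 9 spindle motors and microtubule proteins, 5 of cytokinesis and 4 of chromosome structure.

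The study asked how plasma of people with kidney failure acts on heart muscle cells, and whether nocturnal hemodialysis (NHD), dialysis given through the night, alters that action. Ventricular myocytes of neonatal Sprague-Dawley rats, labelled as 5 days old cultures, received uremic plasma at 10% taken before NHD (6 arrays) or after NHD (6 arrays), control plasma (3 arrays, "CT" in the labels) or phenylephrine (2 arrays, "PE" in the labels), an adrenergic agonist that makes cultured myocytes grow. The labels give no plasma share for the control cultures and no dose or medium for phenylephrine. All cultures share strain, age and cell source, and the labels call the replicates biological without saying whether they were separate cultures or had separate plasma donors, so p-values measure the spread between these samples.

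Cdk1 bound to cyclin B drives entry into mitosis, and Cdc20 with the anaphase promoting complex ends it by marking cyclin B for destruction. Most genes of this machinery are transcribed together late in the cell cycle, from promoters that carry CCAAT boxes, bound by NF-Y, and a cell cycle genes homology region (CHR), bound by the MuvB core complex that works with Mybl2 and Foxm1 in dividing cells and with repressors in resting ones. Rat cardiac myocytes leave the cell cycle soon after birth, while fibroblasts and other cells of such cultures can go on dividing. The arrays measured RNA of whole cultures, in which fewer dividing cells and less of these transcripts per cell cannot be told apart.

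Promoter sequence was available for 37 of the 44 measured genes from RefSeq (assembly GRCr8), as 250 bases before to 50 bases after the annotated start. The missing entries were Ccna2, Pbk, Aurkb, Ube2c, Tpx2, Racgap1 and Cdca2. Windows of 200 bases before to 30 after the start are printed for 5 genes that rose after NHD, to show how the motifs are spaced. They are also printed for 2 that passed in no comparison and hold neither motif in that stretch. These 2 do not stand for the members that passed in no comparison, most of which held both motifs in their full windows. Capitals mark the CHR (TTTGAA, or TTCAAA read on the other strand) and the CCAAT box (CCAAT, or ATTGG), and every line reads 5′ to 3′ in the direction of the gene. Top2a lies on the minus strand at chr10:84473064-84473293, Kif20a on the plus strand at chr18:26504222-26504451, Ect2 on the minus strand at chr2:111966597-111966826 and Ccnb2 on the minus strand at chr8:79981629-79981858. Plk1 lies on the plus strand at chr1:186147458-186147687, Bub1 on the minus strand at chr3:135504892-135505121 and Ndc80 on the minus strand at chr9:118887500-118887729.
Top2a: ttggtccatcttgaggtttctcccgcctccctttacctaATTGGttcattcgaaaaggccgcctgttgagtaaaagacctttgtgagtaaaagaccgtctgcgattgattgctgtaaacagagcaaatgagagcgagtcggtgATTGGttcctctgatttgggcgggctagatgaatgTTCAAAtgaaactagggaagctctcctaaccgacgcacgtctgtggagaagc
Kif20a: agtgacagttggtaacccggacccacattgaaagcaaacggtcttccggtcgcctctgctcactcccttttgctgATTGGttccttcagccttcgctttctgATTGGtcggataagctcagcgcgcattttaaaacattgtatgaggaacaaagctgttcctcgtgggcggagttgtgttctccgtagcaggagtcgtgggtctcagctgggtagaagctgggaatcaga
Ect2: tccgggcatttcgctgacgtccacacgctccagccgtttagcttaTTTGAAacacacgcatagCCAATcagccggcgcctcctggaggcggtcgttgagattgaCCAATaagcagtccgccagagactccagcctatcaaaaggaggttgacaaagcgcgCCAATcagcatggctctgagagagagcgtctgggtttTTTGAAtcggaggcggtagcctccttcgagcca
Ccnb2: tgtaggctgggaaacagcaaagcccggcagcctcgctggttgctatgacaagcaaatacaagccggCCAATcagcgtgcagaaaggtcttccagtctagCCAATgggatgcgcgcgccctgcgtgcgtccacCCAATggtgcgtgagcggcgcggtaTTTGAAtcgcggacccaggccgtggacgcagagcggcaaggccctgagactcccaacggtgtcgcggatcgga
Plk1: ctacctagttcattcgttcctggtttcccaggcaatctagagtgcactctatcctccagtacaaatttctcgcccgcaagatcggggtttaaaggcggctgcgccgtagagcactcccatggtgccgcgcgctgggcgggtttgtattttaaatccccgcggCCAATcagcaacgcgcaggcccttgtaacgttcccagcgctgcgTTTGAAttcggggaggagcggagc
Bub1: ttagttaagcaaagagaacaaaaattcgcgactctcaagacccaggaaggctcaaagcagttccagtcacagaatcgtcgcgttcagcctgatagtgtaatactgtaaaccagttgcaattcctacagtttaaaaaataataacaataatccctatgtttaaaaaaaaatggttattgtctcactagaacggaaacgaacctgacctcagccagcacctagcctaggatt
Ndc80: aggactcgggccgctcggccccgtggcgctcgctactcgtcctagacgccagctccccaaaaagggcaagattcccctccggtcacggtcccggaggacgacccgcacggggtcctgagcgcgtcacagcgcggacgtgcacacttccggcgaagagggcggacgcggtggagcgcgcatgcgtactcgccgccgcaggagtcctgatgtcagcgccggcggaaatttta

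The printed Top2a stretch held 2 CCAAT boxes and 1 CHR, of 4 and 1 in its full window, and the Ect2 stretch 3 CCAAT boxes and 2 CHRs. Ccnb2 held 3 CCAAT boxes in a row ahead of a CHR, with a further CHR upstream of the printed stretch. Kif20a held 2 CCAAT boxes, of 3 in its full window, and no CHR, Bub1 held neither, and the CHR of Ndc80 began at base 34 after the start, outside the printed stretch.

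Over the full windows, a CHR was found on either strand in 26 of 37 members (70.3%) and in 15.2% of 11950 windows of all measured genes. At least 1 CCAAT box was found in 75.7% of the members and 38.4% of all windows, 2 or more in 54.1% and 12.5%, and both motifs in 56.8% and 6.31%. Among members, 2 or more CCAAT boxes stood in 12 of the 16 windows (75.0%) of genes that rose after NHD and in 8 of the 21 (38.1%) of genes that did not pass, whereas a CHR stood in 62.5% and 76.2%. A CHR and a CCAAT box shared a base in the window of Cdca8 and in no other member. A match describes the sequence only, and these shares were not tested.

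**Figure D1:**
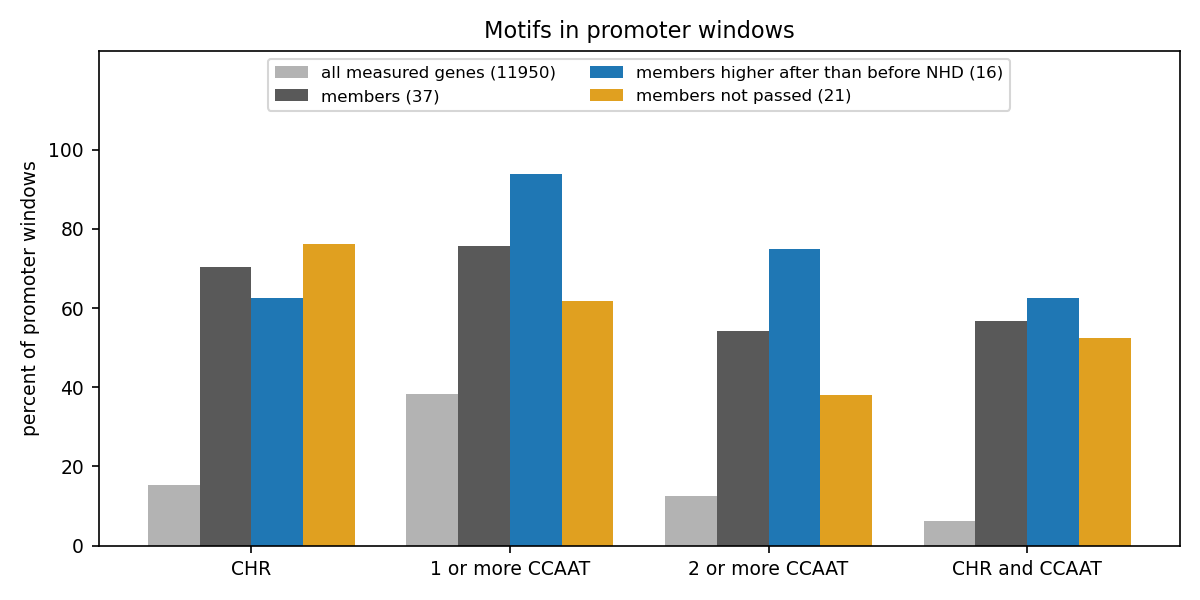
Percent of promoter windows (250 bases before to 50 after the start) that hold a CHR, at least 1 CCAAT box, at least 2 CCAAT boxes, or both motifs, for all 11950 measured genes with a window, 37 members, the 16 members higher after than before NHD and the 21 that did not pass. Members exceed all genes for each motif, and members higher after NHD carry 2 or more CCAAT boxes in 75.0% of windows.

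Values are log2 RMA levels, in which 1 unit is a doubling, and a difference between groups was called at an adjusted p under 0.05 in limma. The array medians ran from 6.89 to 7.03. The 19 measured of 20 cardiomyocyte markers averaged 12.14 to 12.89 on every array, so the labelled cell type was present throughout. Several arrays stood apart from their labels. Before NHD replicate 4 and after NHD replicate 4 were the nearest pair of all arrays (SD of their difference 0.205 over all probe sets), before NHD replicate 5 was nearest to control plasma replicate 3 (0.31), replicate 3 to control plasma replicate 2 (0.401) and replicate 6 to after NHD replicate 3 (0.303). The arrays of control plasma replicates 1 and 3 and of before NHD replicates 1 and 5 also had the narrowest spread of values, with SDs of 2.244 to 2.269 against 2.293 or more on the others.

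Averaged over the 44 members, the 6 arrays before NHD stood at 7.13, 7.32, 8.11, 8.65, 8.25 and 7.81 in the order of their replicate numbers. The 6 arrays after NHD stood at 9.29, 9.13, 9.04, 8.59, 9.17 and 9.13, control plasma at 7.99, 8.04 and 7.99, and phenylephrine at 9.19 and 9.74. Before NHD the arrays were scattered around the control level, and after NHD 5 of 6 lay in a narrow band near the lower phenylephrine array. After NHD replicate 4 was the exception and lay just under before NHD replicate 4. The SD of a member within its group had a median of 0.709 for the before NHD arrays, 0.267 for the after NHD arrays, 0.112 for control plasma and 0.393 for phenylephrine, against 0.258, 0.161, 0.129 and 0.089 over all genes.

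**Figure D2:**
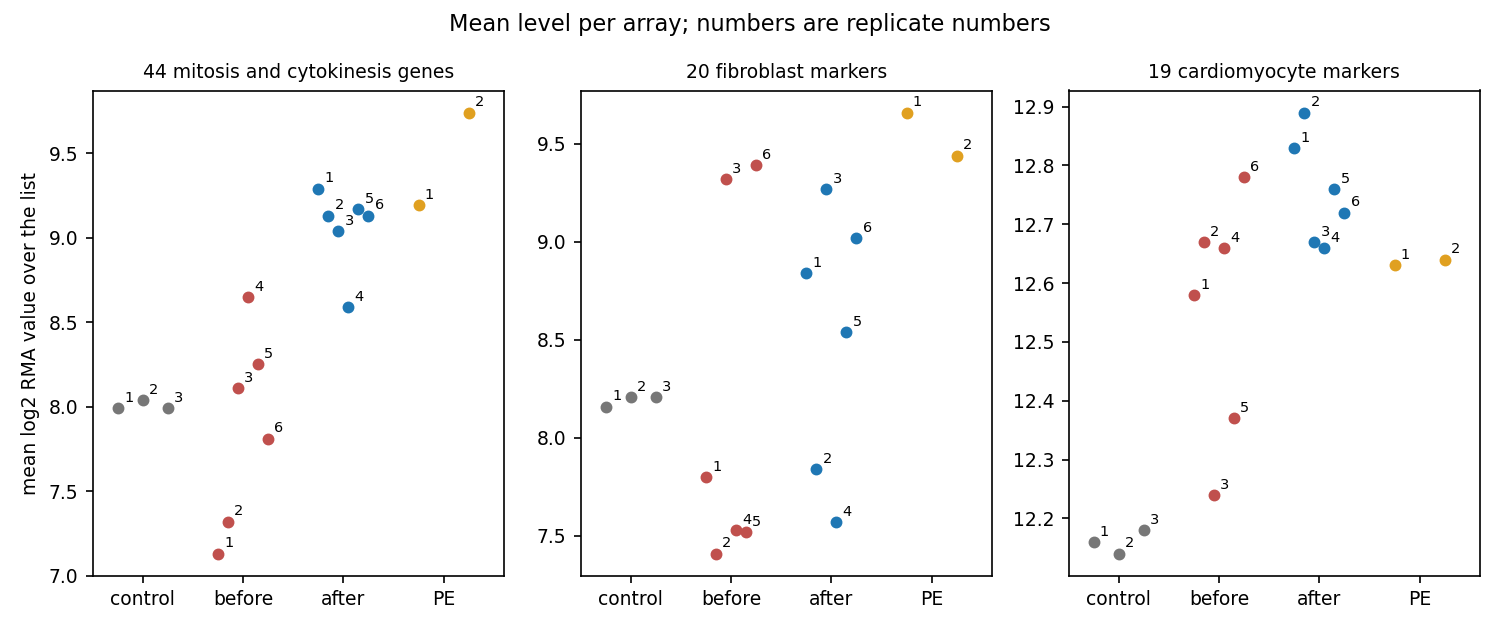
Mean log2 RMA value per array over the 44 mitosis and cytokinesis genes, 20 fibroblast markers and 19 cardiomyocyte markers, with 1 point per array, its replicate number beside it, and a separate vertical scale in each panel (PE, phenylephrine). The member mean runs from 7.13 to 8.65 before NHD and from 8.59 to 9.29 after NHD, and the samples numbered 4 meet at 8.65 and 8.59.

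**Figure D3:**
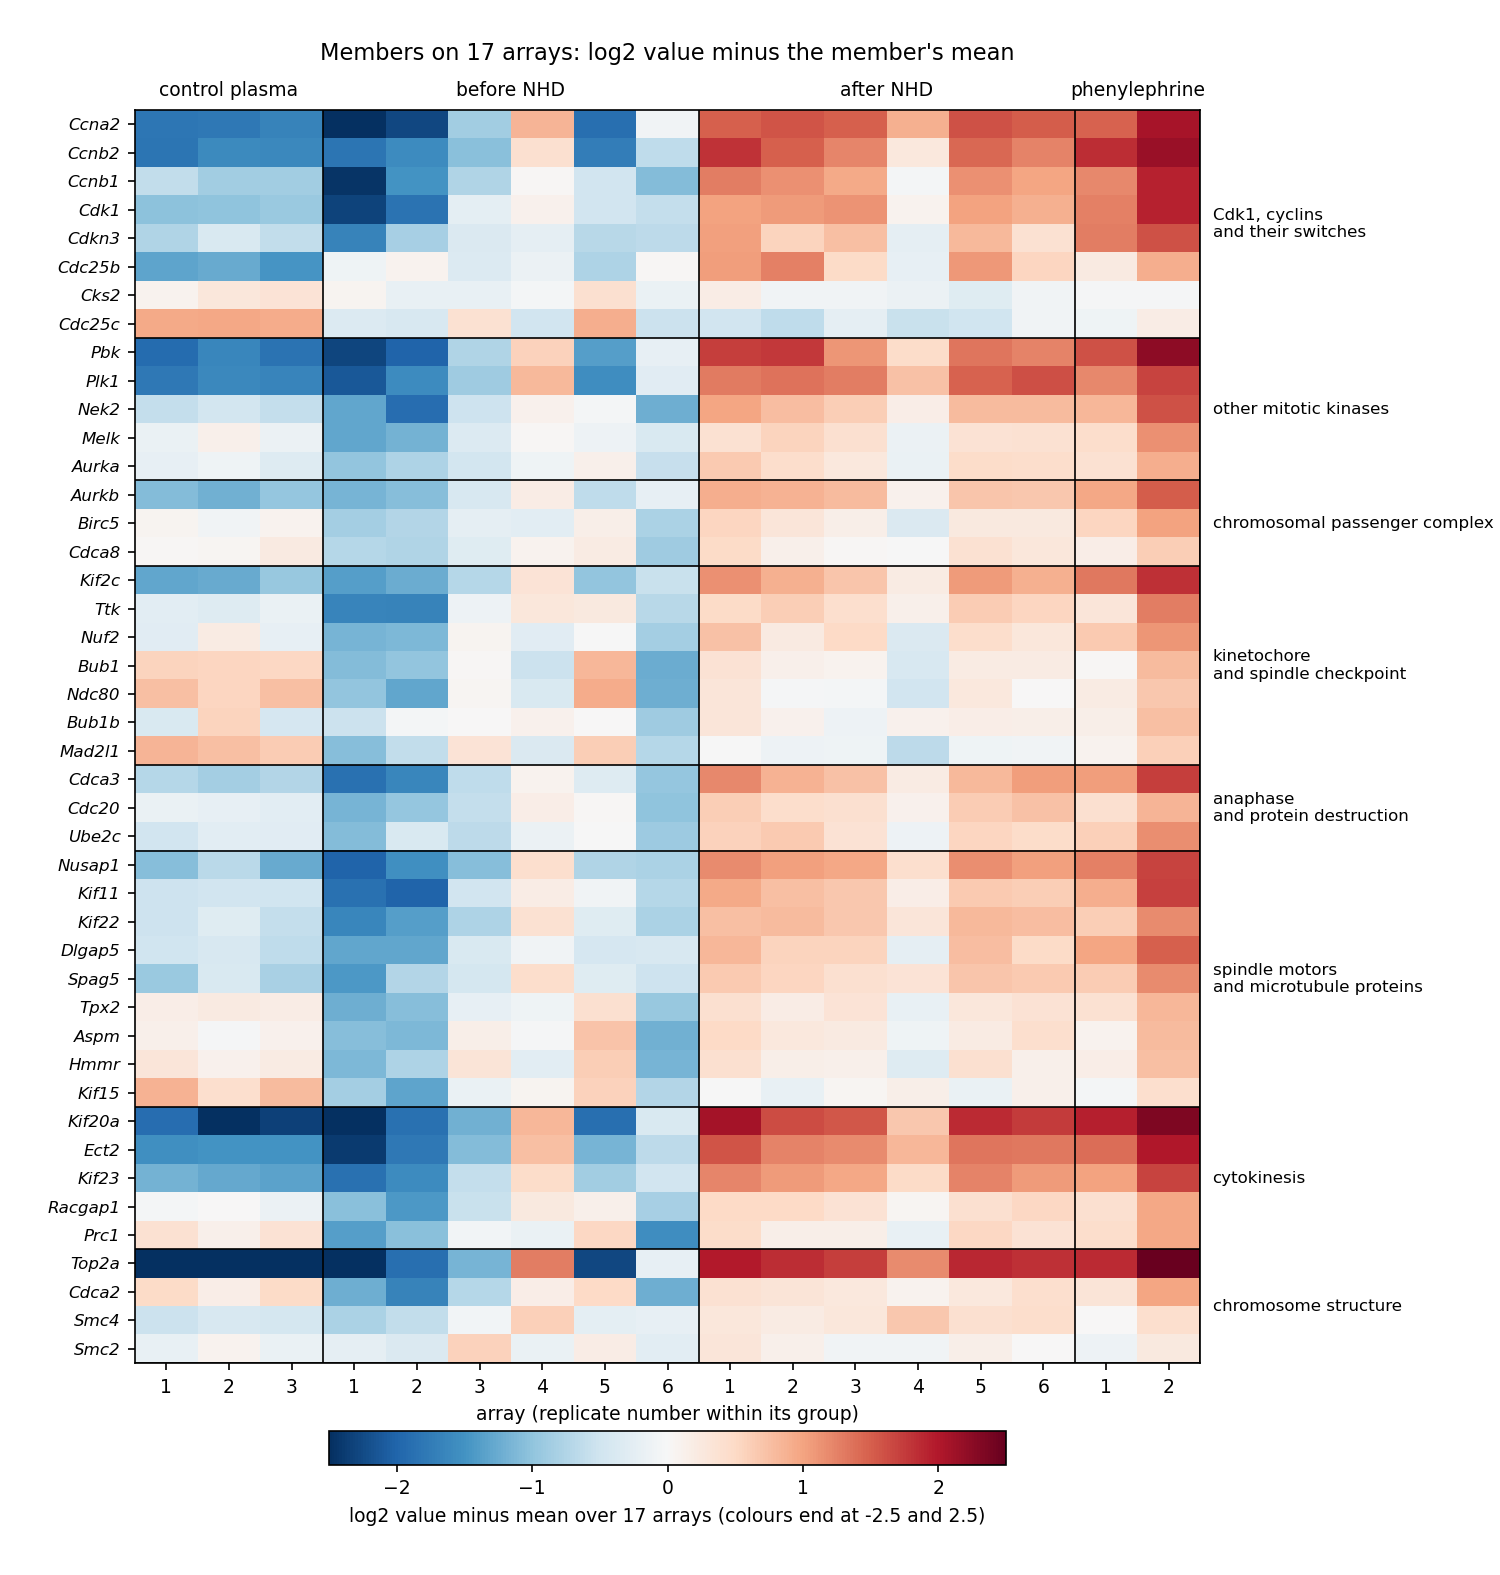
Log2 value of each of the 44 members on each of the 17 arrays, minus the member's mean over all arrays, with members grouped by role and arrays by group. Blue is below and red above the mean, before NHD replicates 1 and 2 are the darkest blue of their group in most rows, and Cdc25c, Mad2l1, Ndc80, Bub1 and Kif15 are red with control plasma.

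The comparison of after with before NHD plasma asked whether the dialysis course altered what uremic plasma does to these genes. With limma, 20 of the 44 members rose after NHD and 0 fell, and 35 had an unadjusted p under 0.05. Over all 14506 genes, 0.379% were higher and 0.103% lower by the same rule. The median difference of the members was 1.01 against -0.01 over all genes, and 42 of 44 were positive. Genes of every role were among those that rose. They were 5 of 8 of Cdk1, cyclins and switches, 3 of 5 other mitotic kinases, 1 of 3 of the passenger complex, 1 of 7 of the kinetochore and checkpoint, 3 of 3 of anaphase and destruction, 3 of 9 spindle proteins, 3 of 5 of cytokinesis and 1 of 4 of chromosome structure. No overlap between the 6 arrays after and the 6 before was seen for 6 members, all higher after NHD (Ccna2, Cdkn3, Nek2, Cdca3, Kif23 and Ect2), and for 0.269% of all genes in that direction.

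These calls sat close to the threshold. Leaving out before NHD replicate 1, 2 or 3, or after NHD replicate 1, 2, 3, 5 or 6, left 0 members called in limma, with 34 to 37 still at an unadjusted p under 0.05, and leaving out before NHD replicate 4 left 33 called. None of the 20 calls held with every array left out in turn, while 42 of 44 members kept the sign of their difference in all 29 alternatives. A fit of the 2 groups alone called 0 (36 at an unadjusted p under 0.05), and array weights gave 38. Without both samples numbered 4, limma called 33 members higher, with a median difference of 1.24. In that set 30 of 44 members (68.2%) had every array after NHD above every array before NHD, against 2.66% of all genes. This omission was chosen with earlier results of these data known. In several members these arrays alone made the overlap, so the gain follows in part from that choice.

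Where 3 values follow for a group of 6 arrays, they are the lowest, the median and the highest. Among Cdk1, its cyclins and their switches, Ccna2 (cyclin A2, partner of Cdk kinases from DNA replication to early mitosis) was at 6.23, 7.43 and 9.66 before NHD and at 9.69, 10.32 and 10.41 after NHD. It stood at 7.01, 7.02 and 7.14 with control plasma and at 10.29 and 10.87 with phenylephrine. The groups before and after NHD did not overlap, the samples numbered 4 being the nearest to each other, and the difference was 2.57 ± 0.45 (SE, adjusted p = 0.0289, 5.93-fold).

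Ccnb2 (cyclin B2) was at 7.16, 7.68 and 9.39 before NHD and at 9.25, 10.32 and 10.79 after NHD. Control plasma gave 7.16, 7.39 and 7.38 and phenylephrine 10.84 and 11.15. Only the samples numbered 4 crossed between the groups, and the difference after against before NHD was 2.31 ± 0.33 (adjusted p = 0.0289). A second probe set of Ccnb2 gave the same difference of 2.31. Its differences against control plasma were nearly equal too, so it need not be an independent measure. Ccnb1 (cyclin B1) was at 7.13, 8.67 and 9.61 before NHD and 9.53, 10.64 and 10.86 after NHD, a difference of 1.94 ± 0.33 (adjusted p = 0.0289), again with an overlap made by the samples numbered 4. Cdkn3, a phosphatase that acts on Cdk kinases, was at 7.70, 8.69 and 9.14 before and 9.15, 10.02 and 10.39 after NHD, without overlap, and rose by 1.29 ± 0.22 (adjusted p = 0.0289).

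Cdk1 itself rose by 1.76 ± 0.34 (adjusted p = 0.04), from 5.80, 7.59 and 8.23 before NHD to 8.21, 9.13 and 9.25 after NHD. The phosphatases that switch Cdk1 on did not pass in this comparison. Cdc25b differed by 0.91 ± 0.22 (adjusted p = 0.0703) and Cdc25c by -0.32 ± 0.21 (adjusted p = 0.437), and Cks2, a small Cdk-binding subunit, differed by -0.07 ± 0.10. Cdc25c and Cks2 were the 2 members with a negative difference.

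Among the other mitotic kinases, Plk1 (polo-like kinase, which acts from mitotic entry to cytokinesis) was at 6.78, 7.67 and 9.71 before NHD and 9.63, 10.22 and 10.51 after NHD. Control plasma gave 7.11, 7.27 and 7.23 and phenylephrine 10.10 and 10.57. All arrays after NHD were above 5 of the 6 before NHD, and the difference was 2.22 ± 0.36 (adjusted p = 0.0289). Pbk, a mitotic kinase, was at 5.11, 6.35 and 7.99 before and 7.87, 8.69 and 9.17 after NHD and rose by 2.28 ± 0.39 (adjusted p = 0.0289). Nek2, which helps to separate centrosomes, was at 7.07, 8.11 and 9.09 before and 9.14, 9.76 and 9.97 after NHD, without overlap, and rose by 1.5 ± 0.28 (adjusted p = 0.04). Aurka, the spindle pole kinase, at 0.81 ± 0.18 (adjusted p = 0.0594), and Melk, at 0.88 ± 0.22 (adjusted p = 0.0721), were positive and did not pass.

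The passenger complex, which corrects chromosome attachment and then guides cytokinesis, was uneven. Its kinase Aurkb rose by 1.22 ± 0.21 (adjusted p = 0.0289), from 7.23, 7.87 and 8.58 before NHD to 8.50, 9.13 and 9.29 after NHD, with an overlap made by the samples numbered 4. Its other members, Birc5 (survivin) at 0.63 ± 0.17 (adjusted p = 0.0845) and Cdca8 (borealin) at 0.61 ± 0.18 (adjusted p = 0.0929), did not pass.

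Of the kinetochore and checkpoint genes only Kif2c, a motor that takes microtubules apart at centromeres, rose after NHD, by 1.57 ± 0.24 (adjusted p = 0.0289). It was at 5.59, 6.12 and 7.31 before NHD and 7.16, 7.85 and 8.11 after NHD, against control values of 5.66, 5.71 and 6.01 and phenylephrine values of 8.28 and 8.78. The samples numbered 4 alone crossed between the groups. The checkpoint kinase Ttk differed by 1.07 ± 0.31 (adjusted p = 0.0934) and Nuf2, of the complex that grips microtubules, by 0.86 ± 0.23 (adjusted p = 0.0828). The checkpoint proteins Bub1, Bub1b and Mad2l1 differed by 0.60 ± 0.28, 0.35 ± 0.19 and 0.12 ± 0.23, and Ndc80, the partner of Nuf2, by 0.49 ± 0.30. None of these 6 passed.

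All 3 measured genes of anaphase and protein destruction rose after NHD. Cdc20, the activator of the anaphase promoting complex, was at 9.65, 10.02 and 10.97 before and 10.91, 11.33 and 11.54 after NHD, a difference of 1.08 ± 0.21 (adjusted p = 0.04). Ube2c, the enzyme that hands ubiquitin to that complex, rose by 0.94 ± 0.18 (adjusted p = 0.04), from 7.56, 8.12 and 8.63 to 8.52, 9.14 and 9.29. Cdca3, which promotes entry into mitosis through protein destruction, rose by 1.70 ± 0.28 (adjusted p = 0.0289), from 5.64, 6.71 and 7.59 to 7.71, 8.35 and 8.71, and its groups did not overlap.

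Among 9 spindle proteins, Nusap1 (a microtubule-bundling protein) rose by 1.91 ± 0.29 (adjusted p = 0.0289), from 6.72, 7.79 and 9.14 before NHD to 9.13, 9.74 and 9.89 after NHD. Kif22, a motor on chromosome arms, rose by 1.43 ± 0.25 (adjusted p = 0.0292), from 6.45, 7.30 and 8.45 to 8.38, 8.85 and 8.88. Dlgap5, which stabilises spindle fibres, rose by 1.15 ± 0.22 (adjusted p = 0.04), from 6.67, 7.56 and 7.89 to 7.76, 8.53 and 8.81. In all 3 the overlap came from the samples numbered 4. Spag5 (1.05 ± 0.22, adjusted p = 0.0522) and the pole-separating motor Kif11 (1.46 ± 0.32, adjusted p = 0.0574) lay just past the threshold. Tpx2, Aspm, Hmmr and the motor Kif15 differed by 0.76 ± 0.23, 0.68 ± 0.28, 0.54 ± 0.27 and 0.39 ± 0.24 and did not pass.

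Cytokinesis genes held some of the larger differences. Kif20a, the motor that carries the passenger complex to the midzone, was at 5.72, 6.68 and 9.04 before NHD and 8.88, 9.90 and 10.29 after NHD. It stood at 6.30, 5.63 and 5.87 with control plasma and 10.15 and 10.54 with phenylephrine. Apart from before NHD replicate 4, all arrays before NHD lay below all arrays after NHD, and the difference was 2.75 ± 0.43 (adjusted p = 0.0289, 6.74-fold).

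Ect2, which activates RhoA to build the contractile ring, was at 7.02, 8.30 and 10.17 before and 10.25, 10.69 and 11.00 after NHD, without overlap, and rose by 2.30 ± 0.36 (adjusted p = 0.0289). Kif23, the motor of centralspindlin, rose by 1.82 ± 0.29 (adjusted p = 0.0289), from 5.94, 7.06 and 8.25 to 8.27, 8.86 and 9.04, also without overlap. Its partner Racgap1 differed by 0.97 ± 0.23 (adjusted p = 0.0701) and the midzone bundler Prc1 by 0.85 ± 0.29 (adjusted p = 0.129), and neither passed.

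Of chromosome structure genes, Top2a (topoisomerase that untangles sister chromatids) had the largest difference of all 44 members. It was at 5.98, 7.07 and 9.88 before NHD and 9.77, 10.44 and 10.57 after NHD. Control plasma gave 6.08, 5.92 and 5.83 and phenylephrine 10.47 and 11.06. Before NHD replicate 4 lay among the arrays after NHD, and the difference was 2.88 ± 0.49 (adjusted p = 0.0289, 7.38-fold). Without both samples numbered 4 it was 3.48 ± 0.33. The condensin subunits Smc4 (0.60 ± 0.18, adjusted p = 0.0973) and Smc2 (0.11 ± 0.14) and Cdca2, a phosphatase-targeting subunit on chromatin (0.98 ± 0.29, adjusted p = 0.0973), did not pass.

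**Figure D4:**
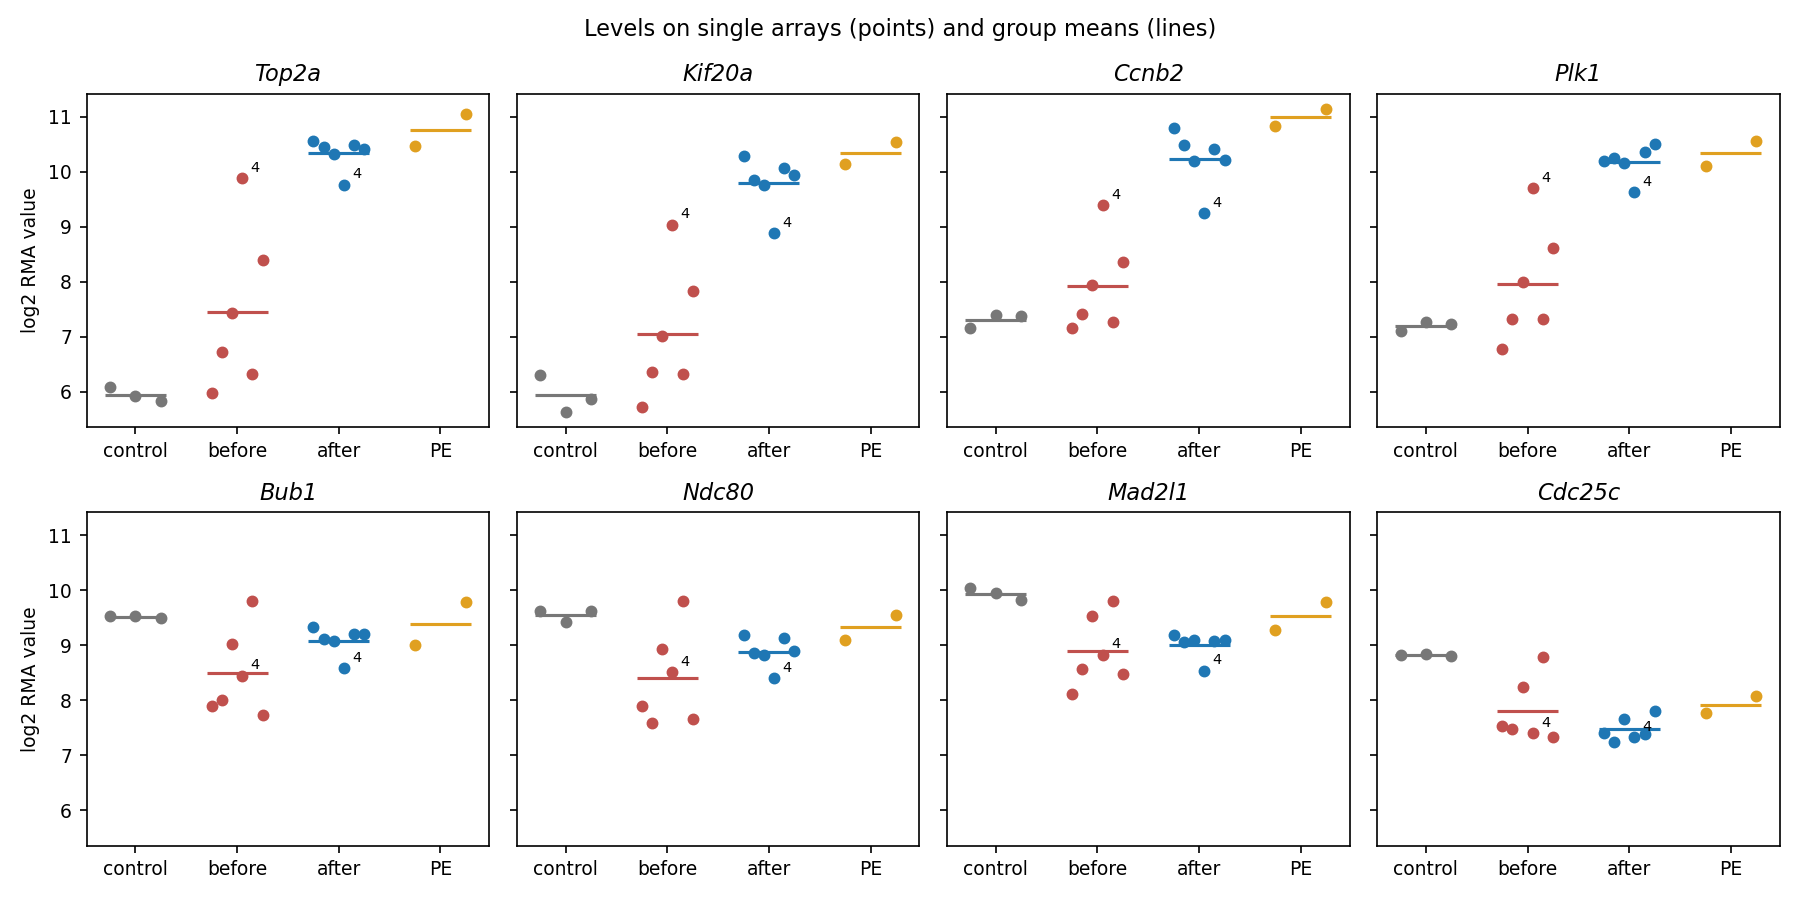
Log2 RMA values of 8 members on single arrays (points) with group means (lines), for control plasma, before NHD, after NHD and phenylephrine (PE), the samples numbered 4 being marked. In the upper row (Top2a, Kif20a, Ccnb2, Plk1) the mean of control plasma lies low and that of after NHD high, and in the lower row (Bub1, Ndc80, Mad2l1, Cdc25c) control plasma has the highest group mean, with single arrays of other groups above it in Bub1 and Ndc80.

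The spread before NHD was shared between members. Before NHD replicate 4 had the highest value of its group in 26 members and replicate 5 in 15, replicate 1 the lowest in 26, and after NHD replicate 4 the lowest of its group in 39. Between the samples numbered 4, members differed by a median of -0.07 (range -0.30 to 0.13), after minus before. Between samples with the same number 1, 2, 3, 5 and 6, the medians over members were 1.85, 1.58, 0.92, 0.62 and 1.35, and 43, 43, 38, 33 and 44 members were higher after NHD, against 11 for number 4. The labels do not say that a number joins samples, and these values describe arrays only.

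Before NHD replicates 4 and 5 were high for different members. In Top2a, Kif20a, Ccnb2, Plk1 and Ccna2, replicate 4 stood at 9.88, 9.04, 9.39, 9.71 and 9.66, whereas replicate 5 stood at 6.33, 6.33, 7.26, 7.33 and 6.93. In Bub1, Ndc80, Mad2l1 and Cdc25c it was the reverse, with 9.81, 9.81, 9.81 and 8.79 in replicate 5 and 8.45, 8.51, 8.83 and 7.40 in replicate 4. In each of these genes, which were picked after their values were seen, replicate 5 lay nearer to the control arrays than to the arrays after NHD.

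Non-myocyte markers moved with some of these arrays and not with others. The 20 fibroblast markers averaged 7.41 to 9.39 before NHD, 7.57 to 9.27 after NHD, 8.16 to 8.21 with control plasma and 9.44 to 9.66 with phenylephrine. After against before NHD, 1 of the 20 rose (S100a4), with a median difference of 0.37, and 0 of 19 cardiomyocyte markers passed (6 at an unadjusted p under 0.05), with a median of 0.17. Before NHD replicates 3 and 6 had fibroblast means of 9.32 and 9.39 with member means of 8.11 and 7.81. Replicates 4 and 5 of that group had 7.53 and 7.52 with 8.65 and 8.25, and after NHD replicate 2 had 7.84 with 9.13. In other arrays both were low or both high. After NHD replicate 4 was the lowest of its group in both, at 7.57 and 8.59. Before NHD replicates 1 and 2 had 7.80 and 7.41 with the lowest member means, 7.13 and 7.32. The phenylephrine arrays had 9.66 and 9.44 with 9.19 and 9.74. Endothelial markers (13 of 15 measured) averaged 6.37 to 7.26 before and 6.43 to 7.10 after NHD, smooth muscle and pericyte markers (11 of 11) 9.07 to 9.91 and 8.99 to 9.77, and leukocyte markers (14 of 15) 6.05 to 6.87 and 6.07 to 6.63. The part of other cell types in the members' differences was not tested.

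Set against control plasma, before NHD plasma asked what uremic plasma does without that dialysis. With limma, 1 of 44 members rose (Cdc25b), 3 fell (Cdc25c, Mad2l1 and Kif15) and 13 had an unadjusted p under 0.05, while 3.75% of all genes were higher and 2.09% lower. The median of the members was -0.25 against -0.05 over all genes. The member shares called, 2.27% and 6.82%, rest on 4 genes.

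Cdc25b was at 8.76, 9.40 and 9.62 before NHD and at 8.21, 8.28 and 8.06 with control plasma. The groups did not overlap, and the difference was 1.14 ± 0.27 (adjusted p = 0.0313). The related phosphatase Cdc25c went the other way. It was at 7.34, 7.50 and 8.79 before NHD and 8.83, 8.85 and 8.81 with control plasma, a fall of 1.03 on the log2 scale (SE 0.26, adjusted p = 0.0355), with replicate 5 just under the control arrays.

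Mad2l1, the checkpoint protein that holds Cdc20 inactive, was at 8.12, 8.70 and 9.81 before NHD and 10.04, 9.95 and 9.82 with control plasma. It fell by 1.05 (SE 0.29, adjusted p = 0.0465), and replicate 5 again came closest to the control. Kif15, a spindle motor that can stand in for Kif11, was at 6.61, 7.47 and 8.51 before NHD and 8.80, 8.34 and 8.71 with control plasma. It fell by 1.09 (SE 0.30, adjusted p = 0.0446), with replicate 5 inside the control range. Ndc80 (-1.16 ± 0.37, adjusted p = 0.073), Cdca2 (-1.07 ± 0.36, adjusted p = 0.0845) and Bub1 (-1.03 ± 0.35, adjusted p = 0.0861) had differences of like size and did not pass.

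The count of members lower before NHD than with control plasma was 11 without before NHD replicate 5. It was 0 without before NHD replicate 1, 2 or 6, after NHD replicate 5 or any 1 of the control arrays (7 to 10 at an unadjusted p under 0.05), and 1 without before NHD replicate 4 or both samples numbered 4, after NHD replicate 1, 2, 3 or 6 or either phenylephrine array. The single higher call, Cdc25b, was lost without before NHD replicate 1, 2 or 6 or control plasma replicate 1 or 3.

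After NHD plasma was also set against control plasma. With limma, 24 members rose and 2 fell, and 29 had an unadjusted p under 0.05, against 16.7% of all genes higher and 16.3% lower. The member share that rose was 54.5% and the share that fell 4.55%. The median was 0.80 against -0.07 over all genes. No overlap was seen for 26 members above control plasma and 5 below it, against 18.5% and 19.6% of all genes. Of the 26 calls, 19 held with each array left out in turn, and those of Nek2, Mad2l1, Cdc20, Ube2c, Kif11, Kif22 and Dlgap5 did not. Without the samples numbered 4, 25 rose, and 13 rose once array SD was added as a term. The cardiomyocyte markers moved in this comparison too, with 11 of 19 higher.

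The 20 members that rose against before NHD plasma also rose against control plasma, a comparison that shares the after NHD arrays. Cdc25b, Kif11, Spag5 and Smc4 rose against control plasma besides. Top2a was higher by 4.40 ± 0.59 (adjusted p = 0.000416, 21.0-fold), Kif20a by 3.87 ± 0.52 (adjusted p = 0.000416, 14.6-fold), Ccna2 by 3.18 ± 0.55 (adjusted p = 0.000846), Pbk by 3.08 ± 0.48 (adjusted p = 0.000573) and Plk1 by 2.98 ± 0.44 (adjusted p = 0.000483). Cdc25b rose by 2.04 ± 0.27 (adjusted p = 0.000416), from 8.06 to 8.28 with control plasma to 9.32, 10.32 and 10.79 after NHD, without overlap. At the lower end Cdc20 rose by 0.70 ± 0.25 (adjusted p = 0.0472).

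Cdc25c and Mad2l1 fell against control plasma after NHD as well, by 1.36 (SE 0.26, adjusted p = 0.00145) and 0.93 (SE 0.29, adjusted p = 0.0236). Cdc25c was at 7.24, 7.40 and 7.80 after NHD and Mad2l1 at 8.54, 9.09 and 9.18, all below the control arrays given above. Bub1 after NHD, at 8.58, 9.16 and 9.34, lay below its control values of 9.54, 9.53 and 9.50, and Ndc80, at 8.40, 8.88 and 9.19, below 9.63, 9.42 and 9.63, but their differences of -0.44 ± 0.35 (adjusted p = 0.372) and -0.67 ± 0.37 (adjusted p = 0.185) did not pass. Mad2l1 lost its call without any 1 of the control arrays, which left 1 member lower, and 4 members were lower without before NHD replicate 5.

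**Figure D5:**
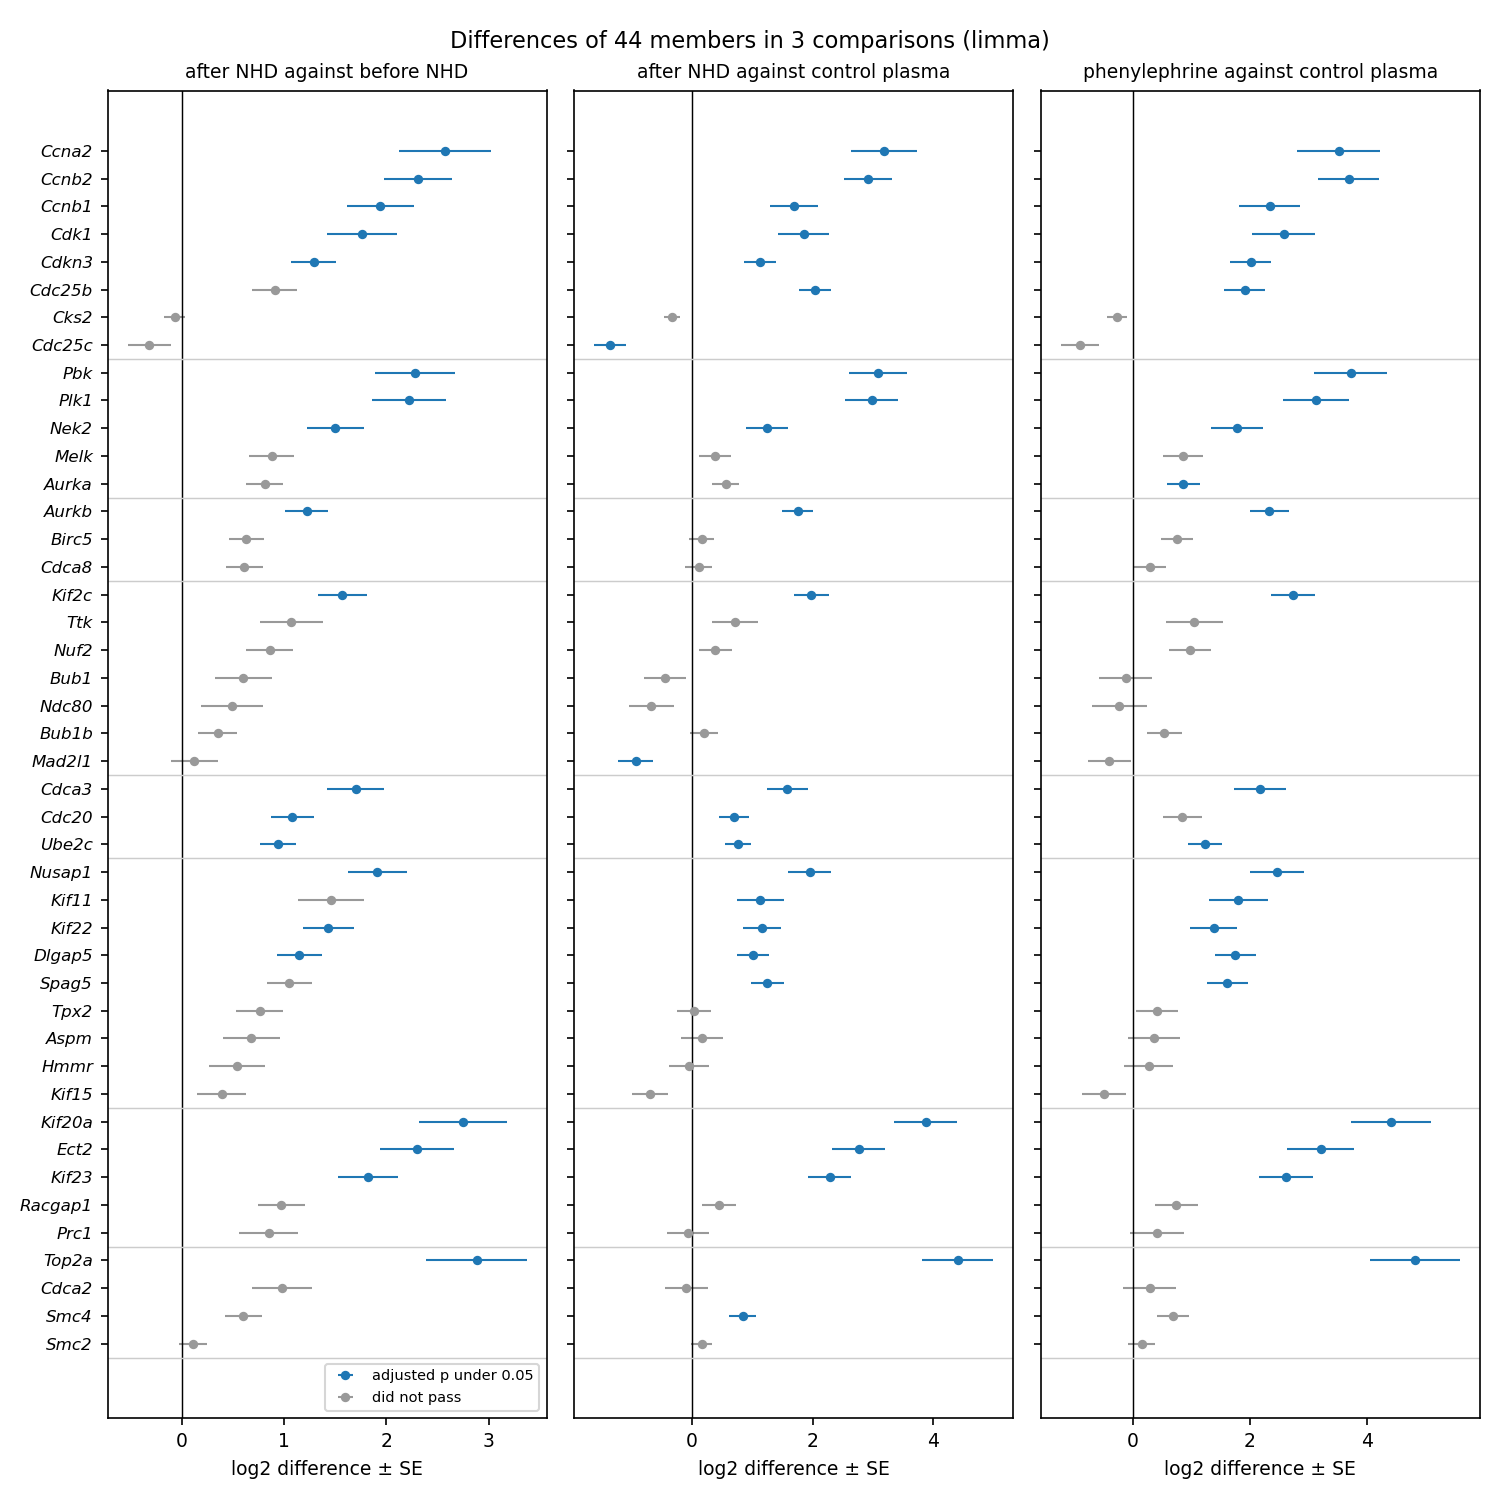
Log2 difference ± SE (limma) of the 44 members after against before NHD, after NHD against control plasma and phenylephrine against control plasma, with members grouped by role, blue where the adjusted p was under 0.05 and grey where it was not. The horizontal scales differ, and Top2a reaches 2.88, 4.40 and 4.82 while Cdc25c stands at -0.32, -1.36 and -0.91.

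Phenylephrine, the growth stimulus of the design, rests on 2 arrays and borrows its error from the other groups. Against control plasma 23 members rose and 0 fell in limma, with 30 at an unadjusted p under 0.05, while 11.7% of all genes were higher and 11.9% lower. The median was 1.14 against -0.06. Top2a rose by 4.82 ± 0.77 (adjusted p = 0.000889, 28.2-fold), Kif20a by 4.41 ± 0.68 (adjusted p = 0.000737), Pbk by 3.72 ± 0.62 (adjusted p = 0.00117) and Ccnb2 by 3.69 ± 0.52 (adjusted p = 0.000518). Aurka, which passed in none of the comparisons above, rose by 0.86 ± 0.28 (adjusted p = 0.0435), from 7.64, 7.73 and 7.53 to 8.22 and 8.76. Without phenylephrine replicate 2, whose value was above that of replicate 1 in 43 of 44 members, 13 rose. All 20 fibroblast markers were also higher with phenylephrine than with control plasma, by a median of 1.27, and 4 of them passed, and their part in the members' differences was not tested.

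Against before NHD plasma, 27 members were higher with phenylephrine and 0 lower in limma (38 at an unadjusted p under 0.05), with 2.63% of all genes higher and 3.14% lower, and the median was 1.40 against -0.01. The count was 5 without phenylephrine replicate 1, 0 without replicate 2 (27 at an unadjusted p under 0.05) and 0 in a fit of the compared groups alone (34). Against after NHD plasma, limma called 0 members higher and 0 lower, with 4 at an unadjusted p under 0.05 (Cdkn3, Birc5, Kif2c and Dlgap5), and 0.662% of all genes higher and 0.689% lower. The median difference was 0.43, and 41 of 44 members were positive. All 20 fibroblast markers were higher with phenylephrine in both comparisons too, by a median of 1.30 against before NHD (2 passed) and 0.92 against after NHD (0 passed, 7 at an unadjusted p under 0.05), and their part was not tested. Cdkn3 differed by 0.88 ± 0.32 (adjusted p = 0.248) and Top2a by 0.42 ± 0.69 (adjusted p = 0.877), so that differences of this size were not resolved with 2 arrays.

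The order of the 4 group means separated the members into a few patterns. In 19 members the order from low to high was before NHD, control plasma, after NHD, phenylephrine, as in Ccnb1, Cdkn3, Aurka, Nek2 and Cdc20. In 13 it was control plasma, before NHD, after NHD, phenylephrine, as in Top2a, Kif20a, Ccna2, Ccnb2, Plk1 and Ect2. In these patterns no member passed between control plasma and before NHD, nor between after NHD and phenylephrine, so that these neighbours in the order were not resolved.

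In 6 members the control mean was the highest of the 4. Bub1, Mad2l1, Ndc80 and Kif15 ran from before NHD through after NHD and phenylephrine up to control plasma, Cdc25c had its lowest mean after NHD, and Cks2 did too, within a narrow range of 5.97 to 6.66 over all arrays. Cdc25b, Smc2 and Smc4 had control plasma lowest, before NHD next and their highest mean after NHD, and Hmmr, Prc1 and Cdca2 had control plasma between after NHD and phenylephrine. In all, 12 members passed in no comparison, namely Cks2, Cdca8, Bub1, Bub1b, Ttk, Ndc80, Tpx2, Hmmr, Aspm, Prc1, Smc2 and Cdca2. Bub1 and Ndc80, whose promoters are printed above with few or no motifs, were among them. Most of the 12 held both motifs in their full windows, namely Cks2, Cdca8, Ttk, Hmmr, Aspm, Prc1 and Smc2.

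Further genes of the same process were less uniform. Of 79 other mitosis genes, 51 were measured, and after against before NHD 12 rose and 0 fell, with a median of 0.47. The share that rose was 23.5%, against 0.379% of all genes higher and 0.103% lower. Like those of the members, all calls of this comparison, for the regulators below too, were lost without before NHD replicate 1, 2 or 3 or after NHD replicate 1, 2, 3, 5 or 6, when limma called 0 of 29214 probe sets, with 4293 to 4916 at an unadjusted p under 0.05. The 4 with the smallest p were Ccnf (a cyclin-like F-box protein, 1.38 ± 0.20, adjusted p = 0.0289), Oip5 (which helps to load centromeric histone, 1.48 ± 0.23, adjusted p = 0.0289), Tacc3 (a spindle fibre protein, 1.46 ± 0.25, adjusted p = 0.0289) and Cenpw (an inner kinetochore protein, 1.15 ± 0.22, adjusted p = 0.04). Against control plasma, 15 of the 51 rose after NHD and 12 fell, with a median of 0.05. These are 29.4% and 23.5%, against 16.7% and 16.3% of all genes. Before NHD 1 rose and 6 fell, 1.96% and 11.8% against 3.75% and 2.09% of all genes, with a median of -0.46. None of these shares was tested against another.

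Lists of the complexes around this machinery gave no call after against before NHD, where 0.379% of all genes were higher and 0.103% lower. At such shares, 0 calls in lists of this size does not set these complexes apart from all genes. Of 13 measured genes of the anaphase promoting complex and its co-activators 0 passed (4 at an unadjusted p under 0.05, median -0.01), of 7 cohesin genes 0 (2, median 0.04) and of 16 septin, actomyosin and abscission genes 0 (4, median 0.07), all in limma. The genes with the smallest p in them were Anapc5 (0.39 ± 0.11, adjusted p = 0.0902), Stag1 (-0.72 ± 0.19, adjusted p = 0.0776) and Septin6 (0.58 ± 0.19, adjusted p = 0.118). Against control plasma after NHD, 4 rose and 2 fell, 3 rose and 1 fell, and 4 rose and 2 fell in these lists. The shares that fell ran from 12.5% to 15.4%, beside 16.3% of all genes. The first and second list had 30.8% and 42.9% of their genes higher, and the last 4 of 16, beside 16.7% of all genes.

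Among 18 measured regulators listed under transcriptional control of mitosis genes, 2 rose after against before NHD and 1 fell. These are 11.1% and 5.56%, against 0.379% and 0.103% of all genes. The gene that fell was the Cdk inhibitor Cdkn1a, described below. Against control plasma, 10 rose after NHD and 5 fell, 55.6% and 27.8% against 16.7% and 16.3% of all genes. These shares were not tested. Foxm1, the activator that binds with MuvB late in the cycle, was at 7.21, 7.33 and 8.54 before NHD and 8.57, 8.87 and 9.01 after NHD. Control plasma gave 7.27, 7.24 and 6.92 and phenylephrine 9.04 and 9.46. It rose by 1.23 ± 0.20 (adjusted p = 0.0289) without overlap, before NHD replicate 4 being the highest of its group as in most members. E2f8, a repressor of the cell cycle, rose by 0.71 ± 0.14 (adjusted p = 0.0438), and Mybl2 differed by 0.67 ± 0.22 (adjusted p = 0.118).

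Cdkn1a, the p21 inhibitor of Cdk kinases, ran opposite to most members after NHD, against before NHD and against control plasma alike. It was at 11.93, 12.74 and 13.29 before NHD and 11.42, 11.62 and 11.84 after NHD. Control plasma gave 13.39, 13.42 and 13.25 and phenylephrine 11.26 and 11.51. It fell by 1.04 after against before NHD (SE 0.18, adjusted p = 0.0289), without overlap, and by 1.72 after NHD against control plasma (SE 0.22, adjusted p = 0.000416). Before NHD against control plasma it differed by -0.68 ± 0.22 (adjusted p = 0.082), in the same direction as 28 of the 44 members.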

How the data were processed

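Total RNA of 17 samples of cultured neonatal rat ventricular myocytes was biotin-labelled and hybridised to Affymetrix arrays, 1 per sample. Per the submitters' processing notes the authors used RMA, and the deposited values are its log2 expression levels. RMA makes the distributions of the arrays alike, which takes out any shift common to most genes, and it compresses differences near the floor. Its version is not given in the sources used here. Values ran from 1.28 to 14.29 with none missing. Precision is limited by the number of arrays.

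Probe sets were named from the platform annotation, 15310 of 29214 with 1 symbol, 323 with several and 13581 with none here, and symbols were updated by Entrez number with a RefSeq table (15279 found). The probe set with the highest mean stood for its gene (14506 genes). Of the members, Ccnb2 and Nek2 had a further probe set, that of Nek2 with identical values. All 29214 probe sets were fitted by lmFit and eBayes of limma 3.58.1 in R 4.3.3 on all 17 arrays with the 4 groups as the only term (13 residual and 3.32 prior degrees of freedom), 2-sided, with Benjamini-Hochberg adjustment over all probe sets and a threshold of 0.05. All groups share 1 error estimate although their spread differed. The script was tested on simulated data with known changes, drawn independently with 1 spread per probe set in all groups. That test does not cover groups of unequal spread or genes that vary together. The members, the gene lists, the tests and the alternatives were chosen with earlier results of these data known.

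Members were grouped by role. In each role the up to 4 members with the smallest p after against before NHD were given in detail, and every member that passed against the common direction or in no comparison was named. Of each further list up to 4 genes were named by the same p, and Foxm1, Mybl2 and Cdkn1a always. Before NHD replicates 2 and 3 are titled with an extra replicate number, and the last number was used. Deviations of same-numbered samples before and after NHD from their group means correlated at 0.099, 0.422, 0.599, 0.571, -0.025 and 0.251 for numbers 1 to 6. The values 0.599, 0.571 and 0.422 were the highest of any pair of a before NHD and an after NHD array. The main fit did not pair samples, since the labels do not say that a number joins them. Promoter windows were searched for TTTGAA and CCAAT on both strands. Alternatives were the brighter probe sets, 1 probe set per gene, the mean of a gene's probe sets, a second quantile normalization, median centring, a trended robust prior, only the groups compared, the replicate number as a block, array weights, array SD as a term, a 1.5-fold minimum, omission of the samples numbered 4, and omission of every array singly.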

Additional observations from a re-analysis of the deposited data

Results flagged for a closer look

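In 20 of 122 groups of 6 arrays, formed by the named genes before or after NHD, the lowest or highest array lay apart from the rest by Dixon's test (critical ratio 0.625). Chance alone gives such a result in about 1 in 20 groups, and groups of co-varying genes are not independent. The array was after NHD replicate 4 in 19 of them and before NHD replicate 4 in 1.

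After NHD replicate 4 was the lowest of its group, with a ratio of 0.86 for Ccna2, 0.82 for Mad2l1, 0.75 for Nusap1, 0.74 for Ccnb1, 0.73 for Kif22, 0.71 for Aurkb, 0.70 for Top2a and 0.67 for Racgap1. The ratio was 0.65 for Dlgap5, 0.64 for Bub1, Ube2c and Kif23, and 0.63 for Kif20a and Tpx2. Among genes of the further lists it was 0.82 for Ccnf, 0.75 for Anapc5, 0.71 for Tacc3 and 0.69 for Septin6. The same array was the highest of its group for Mau2, a cohesin loader, with a ratio of 0.73, and before NHD replicate 4 was the highest for Fzr1, an activator of the anaphase promoting complex, with 0.66.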

How the results depend on the processing

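In 29 alternative settings, single named genes kept their side of the threshold in 6432 cases, gained a call in 191 and lost it in 445. A change of sign with a call in either fit was seen in 0 cases, and changes of sign without a call count among those kept. The comparisons of phenylephrine with before NHD and with after NHD were left out of this tally. Of the counts of members, after against before NHD (20 higher) gave 0 with only the groups compared (36 at an unadjusted p under 0.05), 38 with array weights and 33 without the samples numbered 4. Before NHD against control plasma (1 higher, 3 lower) gave 0 and 0 with only the groups compared, 2 and 13 with array weights, 0 and 0 with array SD as a term, and 1 lower without the samples numbered 4. After NHD against control plasma (24 higher, 2 lower) gave 13 and 1 with array SD as a term, and 6 lower with only the groups compared and 5 with array weights. For phenylephrine, 1 member (against 0) was lower than with control plasma in the brighter probe sets, after a second quantile normalization, after median centring, with only the groups compared and with array weights. Only the groups compared gave 0 higher against before NHD (34 at an unadjusted p under 0.05), and array weights gave 2 higher against after NHD. Fits of only the groups compared hold fewer arrays and take their error from those groups alone. Over all probe sets they called 0 after against before NHD, where the main fit called 84 higher and 32 lower. After NHD against control plasma they called more, 4557 higher and 5756 lower against 3754 and 4484. The cause of all these shifts was not tested. With the replicate number as a block, 5 members were lower before NHD than with control plasma and 22 were higher after than before NHD. Of the before NHD arrays, 3 of 6 correlated best with the after NHD array of their own number. With each array left out in turn, the counts ran from 0 to 33 higher and 0 to 0 lower after against before NHD, 0 to 1 and 0 to 11 before NHD against control plasma, 18 to 25 and 1 to 4 after NHD against control plasma, 13 to 25 and 0 to 1 for phenylephrine against control plasma, 0 to 34 and 0 to 0 against before NHD, and 0 to 0 and 0 to 0 against after NHD. With 2 phenylephrine arrays and unequal spread, small differences may be missed.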
